A study of Homo sapiens with 12 samples.

Results

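The transcripts of the NF-κB subunits and of the inhibitors and feedback regulators of NF-κB were followed through a time course of PMA/Ionomycin in MDA-MB-231 cells. The 10 genes are the subunits NFKB1, NFKB2, REL, RELA and RELB and the regulators NFKBIA, NFKBIE, NFKBIZ, TNFAIP3 and BCL3. They were chosen by name for their role in the pathway, and each was found once among the 24331 features of the table. The study is about ETS1, whose promoter holds a core-regulatory element (CRE) with binding sites for NFAT and NF-κB. Part of that element was deleted with CRISPR/Cas9 in MDA-MB-231 cells, an invasive breast cancer cell line, and the deleted cells (ΔCRE, labelled KO) were compared with wild type cells (WT).

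RNA-sequencing covered WT and ΔCRE cells at 0, 6 and 24 h of PMA, a phorbol ester that activates protein kinase C, with Ionomycin, a calcium ionophore. The 6 groups (WT at 0 h, WT at 6 h, WT at 24 h, and ΔCRE at the same 3 time points) are labelled by the CRE deletion and the time of treatment, and all share the MDA-MB-231 background. Each group has 2 biological replicates, 12 libraries in all. The number of clones behind the ΔCRE libraries is not given in the sources used here, so the deletion and a clone cannot be told apart. In these bulk samples, fewer cells of a type and less RNA per cell cannot be told apart either. Values are FPKM (fragments per kilobase of transcript, scaled to the number of fragments mapped), which are scaled to length, so levels of different genes can be set side by side.

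The library labelled KO 0h_1 stood apart and was left out of the tests. Its FPKM values summed to 1423335, against between 566255 and 651080 in the other 11 libraries, and 12 of 12 markers of gut epithelium were above 1 FPKM in it. Their summed level was 10010 FPKM there and between 1.28 and 2.85 FPKM in the other 11 libraries, where CDX1, CDX2, VIL1, GPA33 and REG1A were listed at 0 in every library. The MDA-MB-231 markers VIM, CD44, AXL, MSN and EGFR summed to between 1951 and 3083 FPKM in the 11 libraries and to 1385 FPKM in the library labelled KO 0h_1. In it EGFR was at 1.98 FPKM against at least 14.9 FPKM in the others. VIM (1200 FPKM, at least 1543 FPKM in the others) and MSN (56.2 FPKM, at least 166 FPKM) were lower too. CD44 (76.2 FPKM) and AXL (51.1 FPKM) lay within the ranges of the others, 75.9 to 190 FPKM and 46.6 to 125 FPKM. The luminal epithelium markers summed to 7484 FPKM in the library labelled KO 0h_1 and to at most 1068 FPKM in the others. KRT8 (3568 FPKM), KRT18 (2678 FPKM) and EPCAM (1139 FPKM) made most of the sum in that library, where CDH1 (52.3 FPKM) and ERBB3 (44.5 FPKM) were raised too. In it ESR1 was at 0 FPKM, PGR at 0.0128 FPKM and GATA3 at 2.38 FPKM, against 1.76 to 3.32 FPKM for GATA3 in the others. Leukocyte markers summed to at most 0.993 FPKM in the 11 libraries. Steps in the lowest values put the depth of the other libraries at between 73.0% and 119% of that of WT 0 h replicate 1, if no further scaling between libraries was applied. Absolute depth is not given by FPKM values. ΔCRE 0 h is therefore a single library here, ΔCRE 0 h replicate 2.

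ETS1 itself, the gene whose element was deleted, was at 24.0 and 23.7 FPKM in WT cells at 0 h and at 16.5 FPKM in the ΔCRE library. At 6 h it reached 139 and 145 FPKM in WT cells and 62.8 and 62.2 FPKM in ΔCRE cells, a log2 difference of -1.17 (SE 0.06, limma adjusted p = 2.04e-05). The difference did not pass with the library labelled KO 0h_1 included (limma adjusted p = 0.682). That library is in neither group compared, and the log2 difference stayed at -1.17 while its SE was 0.39. In that fit 20 of 11676 tested features were called between genotypes at 6 h, against 1107 of 11256 without the library. At 24 h ETS1 was at 36.2 and 39.7 FPKM in WT cells and at 29.3 and 30.7 FPKM in ΔCRE cells. In the 11 libraries, ETS1 was thus lower in each ΔCRE library than in both WT libraries of its time point.

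NF-κB proteins are dimers of subunits that share a Rel homology domain. RELA, RELB and REL carry a transactivation domain, whereas NFKB1 and NFKB2 code for precursors that are processed to the DNA-binding proteins p50 and p52. In resting cells the IκB proteins, among them those coded by NFKBIA and NFKBIE, hold the dimers in the cytoplasm until the IκB kinase marks them for degradation. RELA with p50 is the dimer of the canonical pathway, which protein kinase C can switch on through the CARD, BCL10 and MALT1 complex, and RELB with p52 is that of the noncanonical pathway. NFKBIZ and BCL3 code for atypical, nuclear IκB proteins, and TNFAIP3 codes for A20, a ubiquitin-editing enzyme that restrains signalling upstream of the IκB kinase. Several of these genes are themselves known targets of NF-κB, so the pathway is known for feedback.

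The promoters of 5 of the genes are shown because they carry a κB motif close to the start. Of the 5 transcripts, 4 rose in WT cells at 6 h (23.3% of all 11256 tested features did), and REL, which was not tested, overlapped with 0 h. Among the 4, TNFAIP3 reached the mean of 1 FPKM needed for testing only through its stimulated libraries. RELA and BCL3, whose promoters held no match, rose as well. Whether the motif goes with a rise was not tested. The sequences are from RefSeq on GRCh38.p14, whereas the FPKM table uses hg19. Each line gives the 120 bases before a transcription start, 5′ to 3′ on the strand of the gene, and capitals mark a match on either strand to the motif searched, which is GGGA, then any 2 bases, then TTCC.
REL: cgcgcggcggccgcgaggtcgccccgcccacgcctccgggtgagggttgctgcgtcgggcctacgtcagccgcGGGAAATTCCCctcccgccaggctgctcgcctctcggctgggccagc
NFKB1: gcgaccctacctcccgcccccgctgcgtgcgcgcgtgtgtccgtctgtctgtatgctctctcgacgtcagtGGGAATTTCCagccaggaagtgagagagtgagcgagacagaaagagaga
TNFAIP3: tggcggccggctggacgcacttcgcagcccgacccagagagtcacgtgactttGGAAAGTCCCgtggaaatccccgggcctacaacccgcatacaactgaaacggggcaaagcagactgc
NFKB2: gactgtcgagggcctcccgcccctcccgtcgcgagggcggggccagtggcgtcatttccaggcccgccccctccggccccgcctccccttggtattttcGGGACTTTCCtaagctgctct
NFKBIA: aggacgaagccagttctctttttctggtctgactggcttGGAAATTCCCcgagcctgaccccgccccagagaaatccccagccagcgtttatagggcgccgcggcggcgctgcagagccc

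These stretches lie at chr2:60881454-60881573 (plus strand) for REL, chr4:102501239-102501358 (plus strand) for NFKB1, chr6:137867139-137867258 (plus strand) for TNFAIP3, chr10:102395585-102395704 (plus strand) for NFKB2 and chr14:35404750-35404869 (minus strand) for NFKBIA. Counted from the start, the match at 1 of 2 NFKB1 starts ran from -49 to -40. At 1 of 3 NFKB2 starts it ran from -21 to -12. It ran from -67 to -58 in TNFAIP3 and from -81 to -72 in NFKBIA. In REL, 2 matches overlapped, from -47 to -38 on the strand of the gene and from -46 to -37 on the other strand. NFKBIZ had a match from -223 to -214 of 1 of its starts. In the 250 bases before the start, the motif was found in 6 of 13 promoters of the 8 genes with an entry (46.2%) and in 492 of 35116 promoters overall (1.4%). The promoters of RELA and BCL3 held no match in this window, and RELB and NFKBIE have no entry. A match describes letters in a reference and is not evidence of binding in these cells.

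In unstimulated WT cells the subunit mRNA was mostly RELA and the regulator mRNA mostly NFKBIA. RELA stood at 30.8 and 31.1 FPKM and NFKBIA at 28.1 and 28.3 FPKM. NFKB1 (12.5 and 11.9 FPKM) and NFKB2 (11.6 and 11.3 FPKM) followed, 2 neighbours whose replicates did not overlap but lay close together, with SDs of 0.45 and 0.18 FPKM. NFKBIZ came next at 7.83 and 6.85 FPKM and BCL3 at 5.80 and 3.62 FPKM, 2 neighbours in this order whose replicates did not overlap but whose SDs were 0.70 and 1.54 FPKM. NFKBIE (2.31 and 2.41 FPKM), RELB (1.94 and 1.91 FPKM), REL (0.781 and 1.06 FPKM) and TNFAIP3 (0.784 and 0.687 FPKM) were low, and the last pair overlapped.

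**Figure D1:**
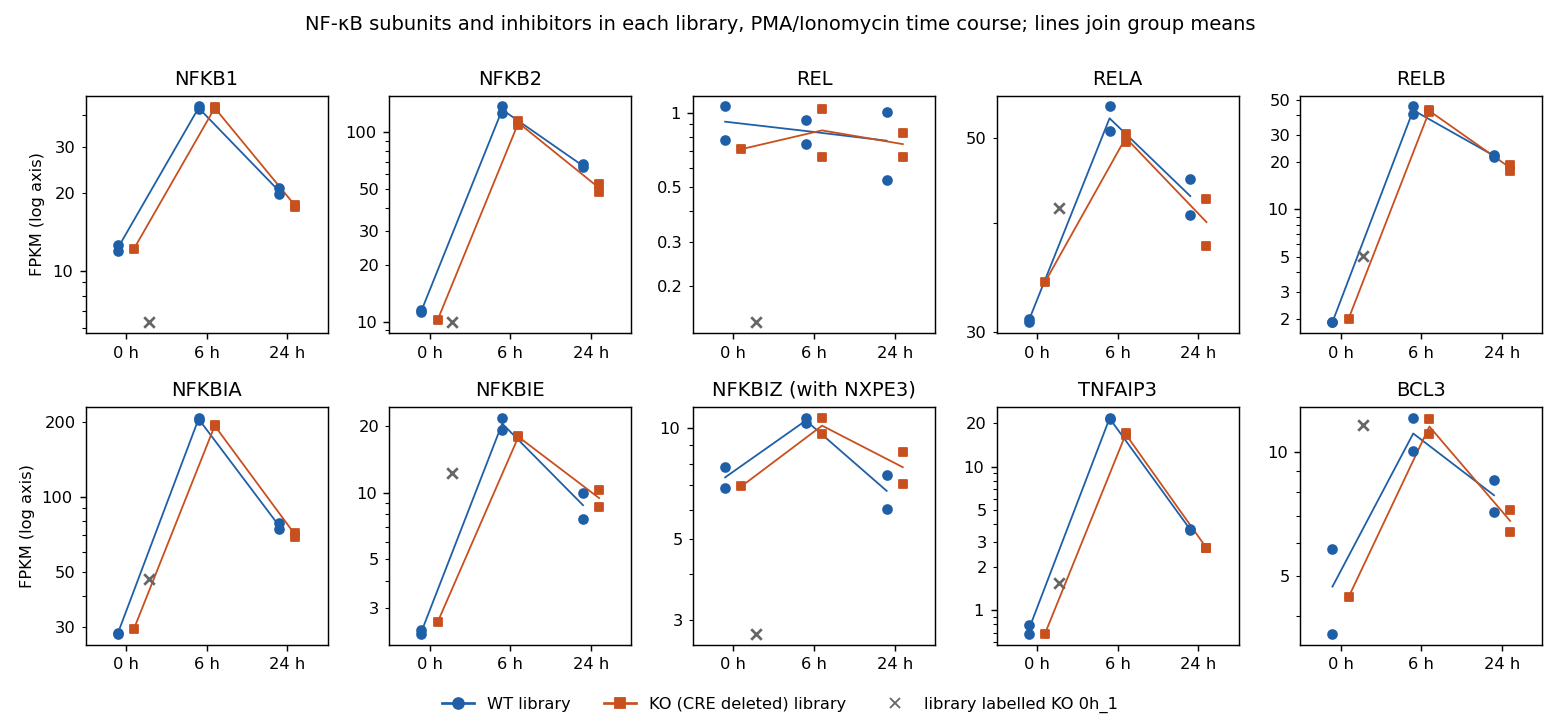
FPKM of the 10 genes in each library (log axis, 1 panel per gene) at 0, 6 and 24 h. Circles are WT libraries, squares are ΔCRE (KO) libraries, crosses are the library labelled KO 0h_1 and lines join group means. At 6 h the WT and ΔCRE libraries lie above the 0 h libraries used in the tests in each panel except REL, which stays between 0.535 and 1.06 FPKM in the 11 libraries used.

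To ask how the pathway responded early, WT cells at 6 h were compared with WT cells at 0 h. All 9 genes that could be tested rose, among 23.3% of all 11256 tested features called higher. REL was not tested because its mean over the 11 libraries was below 1 FPKM, and TNFAIP3 passed that filter only through its stimulated libraries. The median log2 fold change of the 9 genes was 2.68, against -0.00 over all tested features. Fold changes are on the log2(FPKM + 1) scale, which understates the change of low genes.

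Among the subunits, the 2 partners of the noncanonical dimer rose most. RELB went from 1.94 and 1.91 FPKM to 45.3 and 40.4 FPKM, a log2 fold change of 3.91 (SE 0.07, limma adjusted p = 2.78e-09). NFKB2 went from 11.6 and 11.3 FPKM to 137 and 126 FPKM, a log2 fold change of 3.41 (SE 0.07, limma adjusted p = 4.67e-09). Both 6 h libraries lay far above both 0 h libraries for either gene, with ratios of mean FPKM of 22.3 and 11.5.

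The partners of the canonical dimer rose less. NFKB1 went from 12.5 and 11.9 FPKM to 41.9 and 43.0 FPKM, a log2 fold change of 1.72 (SE 0.05, limma adjusted p = 8.98e-08). RELA went from 30.8 and 31.1 FPKM to 54.4 and 51.0 FPKM, a log2 fold change of 0.75 (SE 0.07, limma adjusted p = 8.48e-05). Neither gene's groups overlapped. REL, whose product is a transactivating subunit best known from lymphocytes, stood at 0.752 and 0.940 FPKM at 6 h and overlapped with 0 h.

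Among the regulators, TNFAIP3 and the cytoplasmic inhibitors rose most. TNFAIP3, whose feature (hg19 chr6:138144807-138204451) reaches upstream of the annotated gene (138188351 to 138204451), went from 0.784 and 0.687 FPKM to 21.9 and 21.4 FPKM, a log2 fold change of 3.71 (SE 0.06, limma adjusted p = 2.59e-09). NFKBIA, which codes for IκBα, went from 28.1 and 28.3 FPKM to 203 and 209 FPKM, a log2 fold change of 2.83 (SE 0.05, limma adjusted p = 2.6e-09). NFKBIE, which codes for IκBε, went from 2.31 and 2.41 FPKM to 21.9 and 19.2 FPKM, a log2 fold change of 2.68 (SE 0.12, limma adjusted p = 1.04e-06). In all 3 genes the time points were separated by many times the replicate spread, and NFKBIA became the most abundant of the 10 transcripts.

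The atypical IκB genes rose least. BCL3 went from 5.80 and 3.62 FPKM to 12.1 and 10.1 FPKM, a log2 fold change of 1.11 (SE 0.17, limma adjusted p = 0.00122). The feature that holds NFKBIZ went from 7.83 and 6.85 FPKM to 10.3 and 10.7 FPKM, a log2 fold change of 0.46 (SE 0.12, limma adjusted p = 0.0128). That feature (hg19 chr3:101498029-101579869) covers its neighbour NXPE3 as well, so the 2 genes cannot be told apart in it. The NFKBIZ call was lost without WT 0 h replicate 2 (adjusted p = 0.085), WT 6 h replicate 1 (adjusted p = 0.052) or WT 6 h replicate 2 (adjusted p = 0.0659) in the limma fit, and with the library labelled KO 0h_1 included, 7 of the 9 genes were called, without NFKBIZ and BCL3. With that library included, 857 of 11676 tested features were called in either direction, against 4993 of 11256 without it.

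At 24 h most of the transcripts had come down from 6 h but stayed above their starting level. Against WT at 0 h, 8 of the 9 genes were higher (26.5% of all tested features were), and against WT at 6 h, 8 of the 9 were lower (26.3% of all tested features were). These comparisons share their WT libraries with each other and with the comparison of 6 h with 0 h, so they are not independent. The share of the rise left at 24 h differed among the genes.

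Of the 8 genes still above their start, TNFAIP3 had lost the largest share of its rise, at 3.67 and 3.60 FPKM with 13.9% of the rise in mean FPKM left, which was still 4.94 times its 0 h mean. NFKB1 (19.7 and 20.8 FPKM, 26.5% of the rise left) and NFKBIA (78.3 and 74.2 FPKM, 27.0% left) came next, followed by NFKBIE (9.96 and 7.61 FPKM, 35.4% left). NFKB2 kept 45.8% of its rise, at 67.8 and 65.3 FPKM, and RELB kept 49.0%, at 22.3 and 21.7 FPKM. RELA (45.0 and 40.9 FPKM) kept 55.1% and BCL3 (8.57 and 7.14 FPKM) 49.2%, both of a smaller rise. At 24 h the replicates of these genes lay below both of their 6 h libraries and above both of their 0 h libraries.

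On the log2 scale, the change from 6 h to 24 h in WT cells was -2.29 for TNFAIP3 (SE 0.06, limma adjusted p = 1.47e-07), -1.42 for NFKBIA (SE 0.05, limma adjusted p = 4.39e-07) and -1.15 for NFKBIE (SE 0.12, limma adjusted p = 0.000182). It was -1.03 for NFKB1, -0.97 for NFKB2 and -0.93 for RELB, 3 subunits with similar log2 falls. The change of RELA, -0.29 (SE 0.07, limma adjusted p = 0.0115), was small, and its call was lost without WT 24 h replicate 2 (adjusted p = 0.0808), without WT 6 h replicate 1 (adjusted p = 0.077), after quantile normalization (adjusted p = 0.0557) and after rescaling to TPM (adjusted p = 0.0605). BCL3 did not pass (log2 change -0.45, SE 0.17, limma adjusted p = 0.0629), though it did without either WT 0 h library (adjusted p = 0.0167 without each).

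The NFKBIZ feature was back at its starting level at 24 h (7.45 and 6.03 FPKM), overlapped with 0 h and differed from it by a log2 value of -0.11 (limma adjusted p = 0.452). The other 8 genes were higher at 24 h than at 0 h by log2 values between 0.46 for RELA and 2.98 for RELB. BCL3 (log2 fold change 0.66, limma adjusted p = 0.0125) moved to 0.38 without WT 0 h replicate 2, where its call was lost (adjusted p = 0.0693), and also lost it without WT 24 h replicate 1 (adjusted p = 0.0836) and in a separate fit (adjusted p = 0.0608). With the library labelled KO 0h_1 in the fit, 4 genes were called higher at 24 h than at 0 h and 4 lower at 24 h than at 6 h. Over all 11676 features tested in that fit, 1221 and 582 were called in either direction, against 6151 and 5267 of 11256 without the library.

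**Figure D2:**
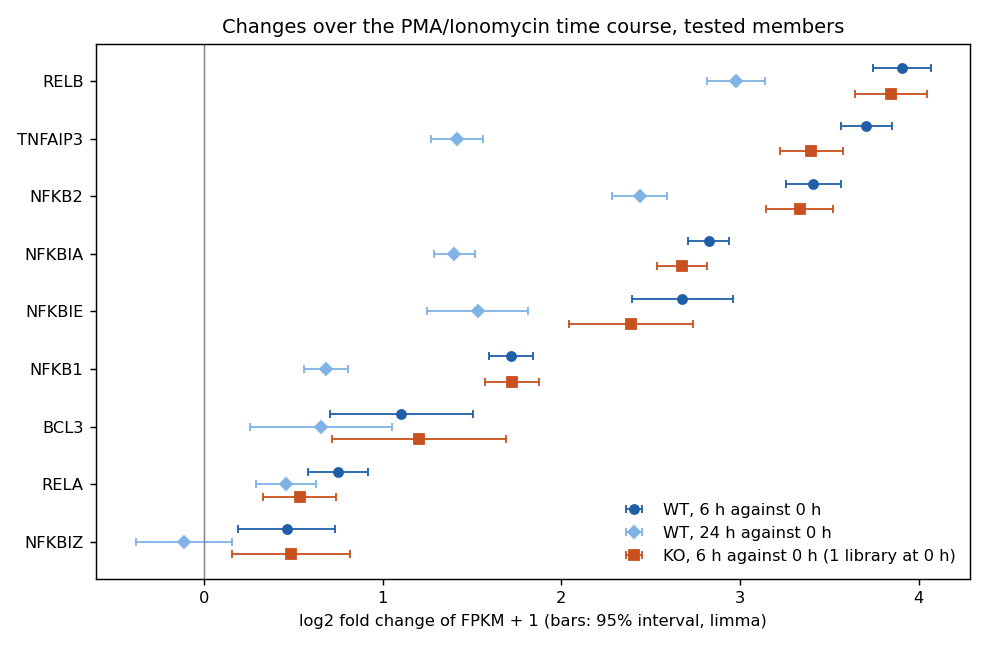
Log2 fold changes of FPKM + 1 for the 9 tested genes at 6 h and 24 h of WT cells against 0 h, and in ΔCRE (KO) cells at 6 h against their single 0 h library, with 95% intervals from limma. The WT values run from 0.46 (NFKBIZ) to 3.91 (RELB) at 6 h, and the WT value at 24 h is nearer to 0 in each gene.

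Because the subunits rose by different amounts, the composition of the subunit mRNA changed. The FPKM of the 5 subunits summed to 57.6 and 57.3 in WT cells at 0 h, to 279 and 262 at 6 h and to 155 and 150 at 24 h. RELA made up 53.4% and 54.3% of that sum at 0 h, 19.5% in both libraries at 6 h, and 29.0% and 27.3% at 24 h. NFKB2 went the other way, from 20.1% and 19.8% to 49.1% and 48.3%, and was still at 43.7% and 43.6% at 24 h.

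RELB rose from 3.36% and 3.33% of the sum to 16.2% and 15.4%, and was at 14.3% and 14.5% at 24 h. NFKBIA mRNA per RELA mRNA, an inhibitor against the subunit it binds, went from 0.915 and 0.910 to 3.74 and 4.09 at 6 h and back to 1.74 and 1.81 at 24 h. These shares and ratios describe mRNA and say nothing of the amounts of protein or of dimers. In ΔCRE cells RELA made up 57.7% at 0 h in 1 library, 20.1% and 20.2% at 6 h and 31.9% and 30.7% at 24 h. NFKB2 made up 17.3%, then 45.9% and 44.7%, then 40.0% and 39.6%, below both WT libraries at each time, a difference in shares that was not tested.

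**Figure D3:**
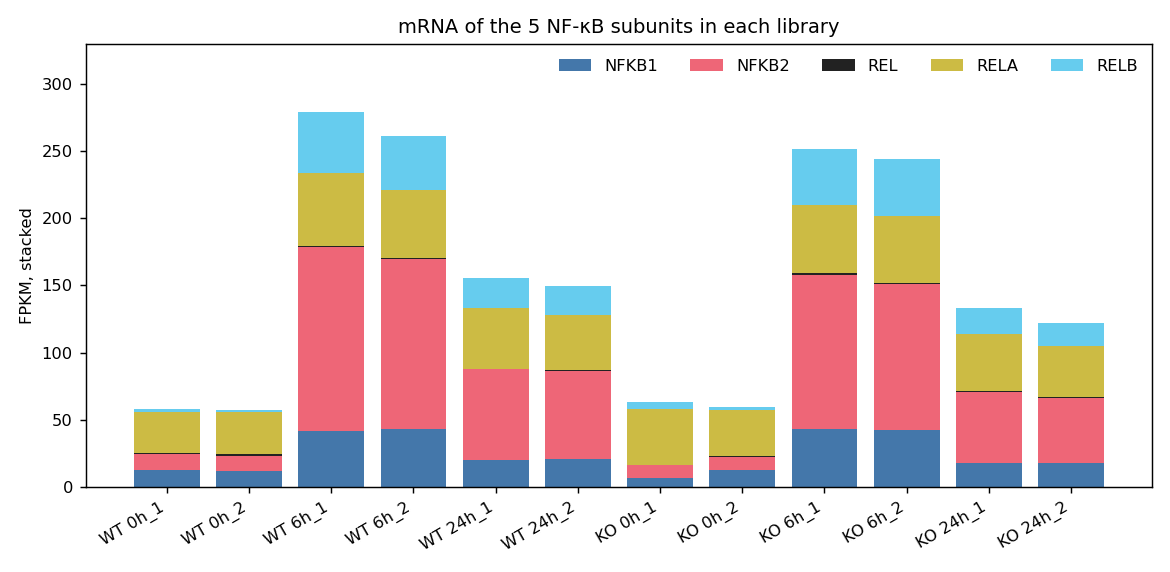
FPKM of NFKB1, NFKB2, REL, RELA and RELB stacked for each library, with the library labelled KO 0h_1 shown too. The stack is 57.3 to 57.6 FPKM high in WT cells at 0 h and 262 to 279 FPKM high at 6 h, where NFKB2 makes the largest part.

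The same genes were then followed in ΔCRE cells. All 9 tested genes were higher at 6 h than in the single ΔCRE 0 h library (16.8% of all tested features were), a comparison added after values were seen, in which the lone library was assumed to vary like the other groups. The log2 fold changes ran from 0.49 for NFKBIZ to 3.85 for RELB. RELB went from 2.02 FPKM to 41.8 and 43.0 FPKM, and TNFAIP3 from 0.687 FPKM to 16.6 and 17.0 FPKM. NFKBIZ (limma adjusted p = 0.0341) lost its call without ΔCRE 6 h replicate 1 (adjusted p = 0.0591), ΔCRE 6 h replicate 2 (adjusted p = 0.118), WT 6 h replicate 1 (adjusted p = 0.0568) or WT 6 h replicate 2 (adjusted p = 0.0549), and in a further 5 of the 9 other settings. With the library labelled KO 0h_1 included, 5 of the 9 genes were called. In that fit 1011 of 11676 tested features were called in either direction, against 3359 of 11256 without the library.

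From 6 h to 24 h all 9 tested genes fell in ΔCRE cells (27.5% of all tested features did). TNFAIP3 dropped from 16.6 and 17.0 FPKM to 2.73 and 2.70 FPKM, a log2 change of -2.26 (SE 0.06, limma adjusted p = 1.63e-07). NFKBIA, at 71.5 and 68.7 FPKM, changed by -1.45 on the log2 scale, NFKB1 by -1.21, RELB by -1.16 and NFKB2 by -1.13. These are the genes whose log2 values fell by more than 1 in ΔCRE cells.

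The smaller changes were less stable. NFKBIZ (log2 change -0.34, limma adjusted p = 0.0398) was lost without any of 5 libraries, the 2 of WT 6 h, the 2 of ΔCRE 6 h and ΔCRE 24 h replicate 2, with adjusted p up to 0.235 and a log2 change of -0.21 without the last of these, and BCL3 (log2 change -0.69, limma adjusted p = 0.0113) was lost without ΔCRE 6 h replicate 2 (adjusted p = 0.0642) or ΔCRE 24 h replicate 2 (adjusted p = 0.0645). NFKBIZ also lost its call after quantile normalization (adjusted p = 0.0814), after rescaling to TPM (adjusted p = 0.0894), without the filter (adjusted p = 0.0789) and in a separate fit (adjusted p = 0.0708). With the library labelled KO 0h_1 included, 5 of the 9 genes were called lower. In that fit 845 of 11676 tested features were called in either direction, against 5586 of 11256 without the library.

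Whether the CRE deletion went with a change in the pathway was asked at each time point. At 0 h, none of the 9 genes passed in limma's test and 0 had an unadjusted p under 0.05, with 1.69% of all tested features called in either direction. The log2 differences lay between -0.15 for NFKB2 and 0.14 for RELA, and their 95% intervals reached from -0.53 for BCL3 to 0.45 for NFKBIE, so differences of that size could not be seen with 1 ΔCRE library. At 6 h, 1 of the 9 genes was lower and none higher, among 6.22% of all tested features called lower and 3.62% called higher. At 24 h, 2 of the 9 were lower and none higher, among 3.97% called lower and 2.35% called higher.

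The gene that was lower at both times was TNFAIP3, the A20 gene. At 6 h it was at 21.9 and 21.4 FPKM in WT cells and at 16.6 and 17.0 FPKM in ΔCRE cells, which is 77.5% of the WT mean and a log2 difference of -0.35 (SE 0.06, limma adjusted p = 0.0116). At 24 h it was at 3.67 and 3.60 FPKM in WT cells and at 2.73 and 2.70 FPKM in ΔCRE cells, 74.6% of the WT mean and a log2 difference of -0.32 (SE 0.06, limma adjusted p = 0.0233). At either time the ΔCRE libraries lay below the WT libraries by more than the replicate spread, whereas at 0 h the ΔCRE library (0.687 FPKM) was level with the lower of the WT libraries.

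The TNFAIP3 calls rested on all 4 libraries of their time point. At 6 h the call was lost without WT 6 h replicate 1 (adjusted p = 0.0955), WT 6 h replicate 2 (adjusted p = 0.0679), ΔCRE 6 h replicate 1 (adjusted p = 0.0568) or ΔCRE 6 h replicate 2 (adjusted p = 0.0576), and at 24 h without any of the 4 libraries of 24 h (adjusted p between 0.103 and 0.153) or either WT 6 h library (adjusted p = 0.0505 and 0.0512). It was also lost in a separate fit of the 2 groups (adjusted p = 0.0527 at 6 h and 0.0924 at 24 h), at 24 h with only features at a mean of at least 5 FPKM (adjusted p = 0.0631) and with the library labelled KO 0h_1 included (adjusted p = 1.0 at both times).

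NFKB2, the p52 precursor gene, was the other gene lower at 24 h. It was at 67.8 and 65.3 FPKM in WT cells and at 53.3 and 48.4 FPKM in ΔCRE cells, 76.5% of the WT mean and a log2 difference of -0.38 (SE 0.07, limma adjusted p = 0.0140). At 6 h it was at 137 and 126 FPKM in WT cells and at 115 and 109 FPKM in ΔCRE cells, 85.3% of the WT mean, with a log2 difference of -0.23 that did not pass (SE 0.07, limma adjusted p = 0.0703). The groups did not overlap at either time. At 6 h NFKB2 passed after quantile normalization (adjusted p = 0.0326) and after rescaling to TPM (adjusted p = 0.0391). The 24 h call was lost without WT 24 h replicate 1 (adjusted p = 0.116), WT 24 h replicate 2 (adjusted p = 0.0657) or ΔCRE 24 h replicate 2 (adjusted p = 0.101), in a separate fit (adjusted p = 0.0848) and with the library labelled KO 0h_1 included (adjusted p = 0.471).

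The other genes differed by less. The 2 genotypes did not overlap, with ΔCRE lower, in 5 of the 9 genes at 6 h (25.6% of all tested features) and in 5 at 24 h (25.0%). With ΔCRE higher there were none at 6 h (29.0% of all tested features) and none at 24 h (26.8%). At 6 h these were NFKB2, RELA, NFKBIA, NFKBIE and TNFAIP3, and at 24 h NFKB1, NFKB2, RELB, NFKBIA and TNFAIP3. NFKB1 was at 42.7 and 42.2 FPKM in ΔCRE cells at 6 h, between the WT values, with a log2 difference of -0.00 and a 95% interval from -0.12 to 0.12. RELA, the canonical partner of p50, differed by -0.07 at 6 h (95% interval from -0.24 to 0.09) and by -0.10 at 24 h (95% interval from -0.26 to 0.07).

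At 24 h NFKB1 was at 17.5 and 18.0 FPKM in ΔCRE cells against 19.7 and 20.8 FPKM in WT cells (log2 difference -0.18, limma adjusted p = 0.0971). RELB was at 19.3 and 17.6 FPKM against 22.3 and 21.7 FPKM (log2 difference -0.24, limma adjusted p = 0.0871), and NFKBIA at 71.5 and 68.7 FPKM against 78.3 and 74.2 FPKM (log2 difference -0.12, limma adjusted p = 0.211). These 3 genes sat just below their WT libraries without passing the test. NFKBIE, NFKBIZ and BCL3 overlapped between genotypes at 24 h.

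The difference between the genotypes in the change over time was tested as well, and none of the 9 genes passed in limma's test. For the change from 6 h to 24 h, 0.16% of all tested features were called, and 2 of the 9 genes, NFKB1 and RELB, had an unadjusted p under 0.05 (log2 differences of -0.18 and -0.23). For the change from 0 h to 6 h, which was added after values were seen, 0.267% of all tested features were called, and TNFAIP3 alone had an unadjusted p under 0.05 (log2 difference -0.31, limma adjusted p = 0.443). The TNFAIP3 and NFKB2 differences at 6 h are therefore not shown to differ from those at 0 h or at 24 h. Whether the differences at 24 h differ from those at 0 h was not tested.

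**Figure D4:**
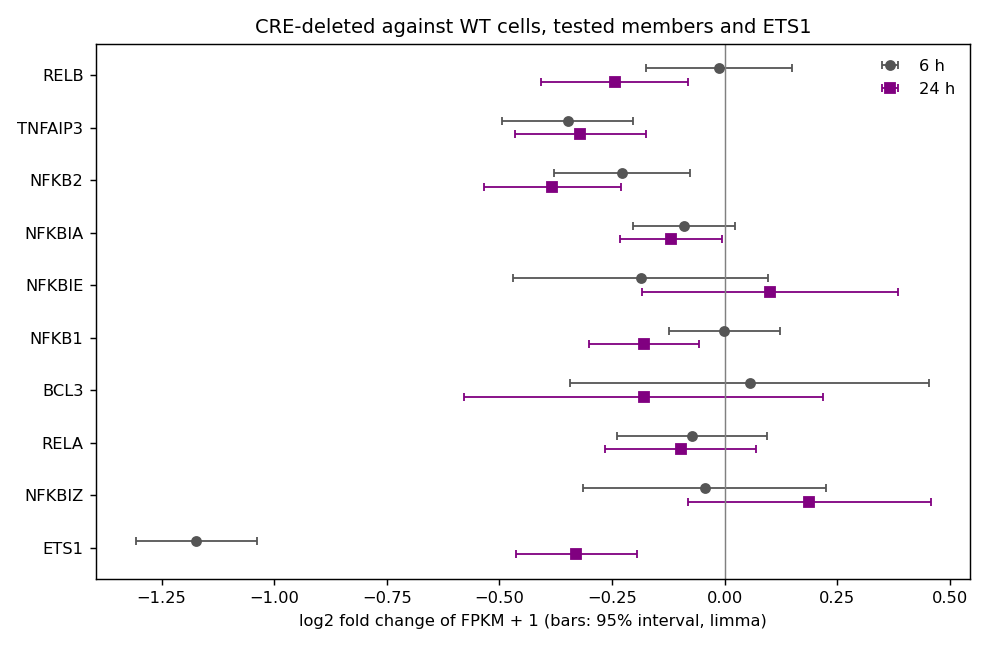
Log2 differences of FPKM + 1 between ΔCRE and WT cells at 6 h and at 24 h for the 9 tested genes, with ETS1 for scale and 95% intervals from limma. ETS1 lies at -1.17 and -0.33, and the NF-κB genes lie between -0.38 and 0.19.

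The rest of the pathway was read from 3 lists. Of 15 tested genes for other IκB proteins and negative regulators, 7 rose and none fell in WT cells at 6 h (23.3% of all tested features were called higher and 21.1% lower), with a median log2 fold change of 0.27. TNIP1, which codes for a binding partner of A20, went from 49.0 and 42.4 FPKM to 304 and 293 FPKM, a log2 fold change of 2.68 (SE 0.07, limma adjusted p = 3.73e-08). ZC3H12A, which codes for an RNase that degrades inflammatory mRNAs, rose from 2.25 and 2.09 FPKM to 10.5 and 10.8 FPKM (log2 fold change 1.88), and CYLD, a deubiquitinase gene, from 4.16 and 4.38 FPKM to 9.95 and 10.1 FPKM (log2 fold change 1.07). TNIP3, the list's other gene, was below the filter. With the library labelled KO 0h_1 included, 4 of the 15 were called higher, in a fit that called 857 of 11676 tested features in either direction.

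Of the 23 genes for kinases and adaptors upstream of NF-κB, 9 rose, 1 fell and 13 did not pass (23.3% of all tested features were called higher and 21.1% lower), with a median log2 fold change of 0.09. Of the 23, 1 was below 1 FPKM on average in WT cells at 0 h and so passed the filter only through stimulated libraries. IKBKE, which codes for a kinase related to the IκB kinases, rose from 5.23 and 5.01 FPKM to 16.1 and 15.7 FPKM (log2 fold change 1.47). TRAF3 and TRAF2, adaptors of the TNF receptor family that also hold the noncanonical kinase in check, rose by log2 values of 0.99 and 0.85. CARD10, the CARD scaffold of non-lymphoid cells, fell from 17.2 and 17.0 FPKM to 12.9 and 12.2 FPKM (log2 change -0.42, limma adjusted p = 0.00147). With the library labelled KO 0h_1 included, 3 of the 23 were called higher and none lower, and after rescaling to TPM 3 were called lower. With that library included, 857 of 11676 tested features were called in either direction.

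Of 25 tested genes known as NF-κB targets, 24 rose at 6 h (23.3% of all tested features were called higher), with a median log2 fold change of 3.76, and BCL2L1 was the exception (log2 change -0.15, limma adjusted p = 0.104). IL8, a neutrophil chemokine gene, went from 1.76 and 1.49 FPKM to 1605 and 1594 FPKM (log2 fold change 9.25). CSF2, which codes for GM-CSF, reached 540 and 522 FPKM from 1.61 and 2.18 FPKM (log2 fold change 7.53), and IL1B reached 167 FPKM in both libraries from 0.737 and 0.453 FPKM (log2 fold change 6.72). Of the 25 genes, 10 were below 1 FPKM on average at 0 h and so passed the filter only through stimulated libraries. IL1A, TNF, VCAM1 and MMP9 were on the list but not tested.

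**Figure D5:**
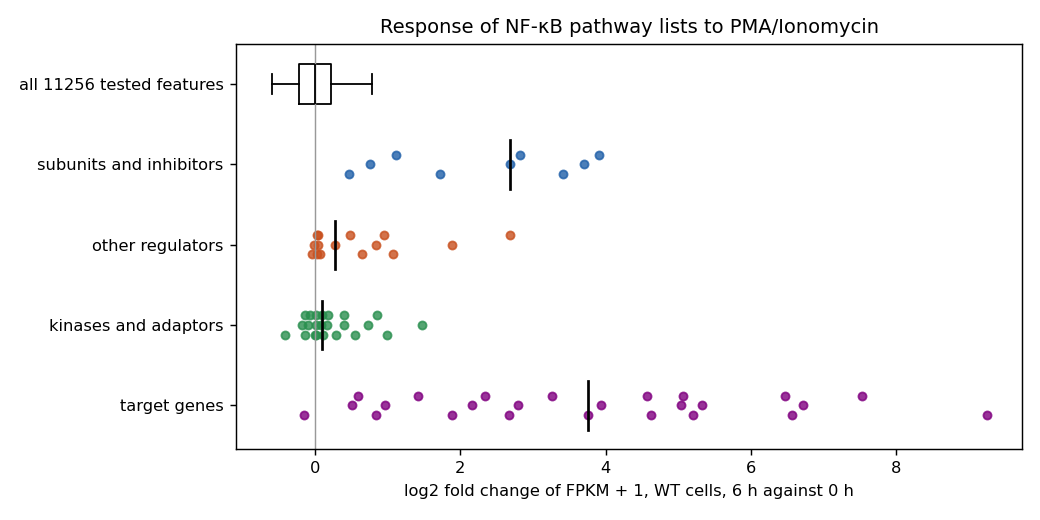
Log2 fold changes of FPKM + 1 in WT cells at 6 h against 0 h, 1 point per gene, for the subunits and inhibitors, the other regulators, the kinases and adaptors and the target genes, beside all 11256 tested features (box from the 0.25 to the 0.75 quantile, whiskers from the 0.05 to the 0.95 quantile), with black bars at the medians. The medians are 2.68, 0.27, 0.09 and 3.76, against -0.00 for all tested features.

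Between the genotypes these lists moved in few genes. At 6 h the regulators PDLIM2 (log2 difference -0.57, limma adjusted p = 0.0197) and OTUD7B (0.27, limma adjusted p = 0.0423) were the 2 of 15 that passed, with 6.22% of all tested features called lower and 3.62% higher. IKBKE (-0.52, limma adjusted p = 0.002) and IKBKB, the catalytic IκB kinase gene (-0.43, limma adjusted p = 0.0101), were the 2 of 23 kinases and adaptors that passed, a count near those shares. IKBKB was at 9.22 FPKM in both WT libraries and at 6.62 and 6.52 FPKM in ΔCRE cells, and at 24 h it was lower again (-0.41, limma adjusted p = 0.0176), as were TRAF2 (-0.24, limma adjusted p = 0.0397) and PDLIM2 (-0.50, limma adjusted p = 0.0437, and -0.31 without ΔCRE 24 h replicate 2), with 3.97% of all tested features called lower. Of these, only IKBKE kept its call without each of the 11 libraries in turn (adjusted p up to 0.0277). Each of the others lost it without at least 3 of the libraries, and with the library labelled KO 0h_1 included none of these genes was called. With that library included, 20 of 11676 tested features were called between genotypes at 6 h and 17 at 24 h.

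Among the 25 targets, 8 were lower and 2 higher in ΔCRE cells at 6 h (6.22% and 3.62% of all tested features were), with a median log2 difference of -0.12. IL1B was at 52.8 and 47.1 FPKM in ΔCRE cells against 167 FPKM in both WT libraries (log2 difference -1.72, limma adjusted p = 2.54e-05), and the apoptosis inhibitor gene BCL2A1 at 15.5 and 14.2 FPKM against 30.5 and 40.2 FPKM (log2 difference -1.18, limma adjusted p = 0.00214). SQSTM1 and PLAU were higher by log2 values of 0.25 and 0.24. At 24 h, 6 were lower and 2 higher (3.97% and 2.35% of all tested features were), with CXCL1 (-1.25) and IL6 (-0.74) lowest and PTGS2 (0.73) and CCL20 (0.35) highest. Leaving out 1 library at a time left between 4 and 8 targets lower at 6 h and between 3 and 7 at 24 h. IL1B, BCL2A1, CXCL1 and PTGS2 kept their calls in these fits, IL6 lost its call without ΔCRE 24 h replicate 2 (adjusted p = 0.0561), and SQSTM1, PLAU and CCL20 lost theirs without several libraries. BCL2A1 lost its call with a pseudocount of 0.1 (adjusted p = 0.0611), and in a separate fit CXCL1 (adjusted p = 0.0546), IL6 (adjusted p = 0.0908), PLAU (adjusted p = 0.0618) and IKBKB (adjusted p = 0.0518 at 6 h and 0.0701 at 24 h) lost theirs. With the library labelled KO 0h_1 included, 1 target was lower at 6 h, IL1B, and none at 24 h. In that fit 20 of 11676 tested features were called in either direction at 6 h and 17 at 24 h.

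Across the 11 libraries, the transcripts whose course was most like that of NFKB1 were TNFAIP3 (Pearson's r = 0.997), BIRC3 (0.995) and FOSL1 (0.995). RELB, which had the widest range of group means on the log2(FPKM + 1) scale, was followed most closely by DLGAP4 (0.999), IRAK2 (0.999) and NFKB2 (0.996). That place depends on the pseudocount. With a pseudocount of 0.1, the log2 fold change in WT cells at 6 h was 4.71 for TNFAIP3 and 4.41 for RELB. These values of r are on log2(FPKM + 1), rest on 6 groups of libraries that share their time points, and are given as a description.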

How the data were processed

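The 12 libraries (2 biological replicates for each genotype and time) were grouped by the genotype, time and replicate number in their labels. P-values rest on the spread between these replicates, estimated for each feature over all 6 groups together and moderated across features. ΔCRE 0 h, with 1 library in the fit, adds nothing to that spread. From stranded mRNA libraries the authors aligned reads against hg19 (TopHat), quantified them (Cufflinks) and deposited FPKM values for 24331 features. Per the labels, FastQC, cutadapt, Bowtie2 and Cuffdiff were used as well. The annotation and any scaling between libraries are not given in the sources used here. The columns of ΔCRE 6 h replicate 2 and ΔCRE 0 h replicate 2 have a digit where the others have a letter, and were matched to the only label left. A feature can name more than 1 gene, as 405 do.

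Features with a mean of at least 1 FPKM over 11 libraries (11256) were tested on log2(FPKM + 1), a pseudocount of 1, with limma 3.58.1 in R 4.3.3 (lmFit, eBayes with trend) with all 6 groups fitted together, and Benjamini-Hochberg adjustment ran over all tested features at a threshold of 0.05. The fit was tested on simulated data. The library labelled KO 0h_1 was left out, and comparisons with ΔCRE 0 h and the difference between genotypes in the change from 0 h to 6 h were added after values were seen. Relative depth was read from features below 0.1 FPKM in 2 libraries, whose ratio clusters (within a log2 value of 0.01) where both hold the same number of fragments. FPKM values give no counts, so no counting interval was computed.

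The 10 genes, the lists and the left-out library were chosen with earlier results of these data known. Named besides the 10 genes and ETS1 are, per list, the 3 highest and 3 lowest called log2 changes at 6 h in WT cells and up to 2 each way between genotypes, and the 3 features most like NFKB1 and like the gene with the widest range. BCL2L1 and the genes below the filter were named after their values were seen, as exceptions to a count. Alternatives tried were quantile normalization, a mean of at least 5 FPKM, no filter, a pseudocount of 0.1, rescaling to TPM, all 12 libraries, a separate fit, the replicate number as a block (from the sample labels), eBayes without trend, and leaving out each library. Promoters came from RefSeq on GRCh38.p14, and 8 of the 10 genes matched. Protein sequences were not analysed here.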

Additional observations from a re-analysis of the deposited data

Results flagged for a closer look

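The library labelled KO 0h_1 was outside the comparisons, and 6 of the 10 genes lay above both WT 0 h libraries in it, as did 46.1% of the 11256 tested features. Scaled to the FPKM sum of the WT 0 h libraries, a setting chosen after seeing the data, RELB (2.07 FPKM) and NFKBIE (5.02 FPKM) stayed above them. BCL3 (4.77 FPKM) lay between them, and RELA (17.0 FPKM), NFKBIA (19.1 FPKM) and TNFAIP3 (0.637 FPKM) lay below. NFKB1, NFKB2, REL and NFKBIZ lay below as well, so that 7 of the 10 genes did. On that scale 12.4% of the features lay above and 83.6% below. The values that follow are as deposited. RELA was at 41.6 FPKM there, against 30.8 and 31.1 FPKM in WT 0 h and 34.2 FPKM in ΔCRE 0 h replicate 2. NFKBIA was at 46.6 FPKM, against 28.1 and 28.3 FPKM in WT 0 h. RELB was at 5.04 FPKM (1.94 and 1.91 FPKM in WT 0 h) and TNFAIP3 at 1.55 FPKM (0.784 and 0.687 FPKM in WT 0 h). NFKBIE, at 12.3 FPKM, was 5.20 times its WT 0 h mean, and BCL3, at 11.6 FPKM, 2.47 times. NFKB1 (6.30 FPKM), NFKB2 (9.92 FPKM), REL (0.142 FPKM) and NFKBIZ (2.76 FPKM) lay below both WT 0 h libraries instead, as did 48.0% of the tested features. ETS1 was at 5.08 FPKM. In that library the gut epithelium markers summed to 10010 FPKM and the luminal epithelium markers to 7484 FPKM. Of the latter sum, KRT8 made 3568 FPKM and KRT18 2678 FPKM, whereas ESR1, PGR and GATA3 were not raised. Leukocyte markers summed to 394 FPKM, of which LYZ made 361 FPKM, with 3 of 6 above 1 FPKM and PTPRC (0.476 FPKM), CD3E (0.565 FPKM) and CD79A (0.508 FPKM) below it. The part of these cells in the levels was not tested.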

How the results depend on the processing

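No called value changed sign under any alternative run. With all 12 libraries in the fit, the 9 tested genes gave 4 higher at 24 h against 0 h and 4 lower at 24 h against 6 h in WT cells, 5 lower at 24 h against 6 h and 5 higher at 6 h against 0 h in ΔCRE cells, and 0 lower between genotypes at 6 h and 0 at 24 h. Of the genes lower in ΔCRE cells, 2 passed at 6 h after quantile normalization, after rescaling to TPM and with the replicate block, and 0 in a separate fit. At 24 h, 1 passed among features with a mean of at least 5 FPKM and 0 in a separate fit. The cause of these changes was not tested.

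Leaving out 1 library at a time gave between 0 and 1 genes lower at 6 h and between 0 and 2 at 24 h between genotypes. It gave between 8 and 9 higher at 6 h and between 7 and 8 higher at 24 h against 0 h in WT cells, between 7 and 9 lower at 24 h against 6 h in either genotype, and between 8 and 9 higher at 6 h in ΔCRE cells.

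Replicate numbers are shared across groups, but the deviations of same-numbered libraries correlated at between -0.07 and 0.20, so they were not read as pairs. With the replicate block, NFKB2 at 6 h (adjusted p = 0.0107) and RELB at 24 h (adjusted p = 0.0394) between genotypes and BCL3 at 24 h against 6 h in WT cells (adjusted p = 0.0245) also passed in limma's test. The block changed no other call of these genes.

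Rescaling to TPM moved the median log2 change of all features at 6 h against 0 h to -0.12 in WT and -0.13 in ΔCRE cells, and the share of higher calls among all calls from 52.5% to 35.0% in WT cells and from 56.4% to 31.8% in ΔCRE cells. At 24 h against 6 h that share moved from 43.7% to 64.3% in WT cells and from 44.6% to 60.7% in ΔCRE cells, and between genotypes at 24 h from 37.2% to 24.7%. Groups of 2, and 1 library for ΔCRE at 0 h, limit what can be seen. Library depths, as read from steps in the lowest values, spanned a range of 73.0% to 119% of that of WT 0 h replicate 1. That reading assumes that no further scaling between libraries was applied.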
